A study of Saccharomyces cerevisiae with 6 samples.

Results

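The response of yeast to doxycycline was compared between the strain whose YFH1 gene the drug controls and its parent, as the mean log2 ratio in the first minus that in the second, for 6174 open reading frames (ORFs), all those deposited. All 6 arrays of the study enter this difference. The strain called tetYFH1 here is BQS201, a derivative of W303-1A that carries tetO7-YFH1 marked with kanMX4, so that doxycycline turns YFH1 off. The control is W303-1A itself (W303), which has no tet promoter and shows the response to the drug and to the time in culture. Both strains grew at 30 °C in YPG, a rich medium with glycerol as carbon source, and were treated with 2 µg/ml doxycycline for 10 h. Each two-colour array set treated cells against untreated cells of the same strain, which the titles place at 0 h, so drug and time cannot be told apart within a strain. For tetYFH1 there were 2 dye-swap pairs of arrays, pair A (A1 and A2) and pair B (B1 and B2), 4 arrays in all. For W303 there was 1 such pair. Nothing in the labels says that the pairs came from separate cultures, so the spread between them may be technical. The labels name 1 strain with the construct, and the control lacks its promoter and its marker.

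YFH1 encodes frataxin, a protein of the mitochondrial matrix that helps to build iron-sulfur clusters, the cofactors of aconitase, of the respiratory chain and of enzymes of leucine and lysine synthesis. Cells that make too few clusters are known to switch on the iron regulon, the iron uptake genes driven by Aft1. On glycerol yeast must respire. Genes for the use of acetate, lactate and fatty acids and for the glyoxylate cycle are then held active by the regulators Adr1 and Cat8, while Msn2 and Msn4 drive a general stress programme that moves against the genes for ribosomes as growth slows.

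A difference is given on the log2 scale, tetYFH1 minus W303, so that -1 stands for a ratio 2-fold lower in tetYFH1. It was tested with limma on the means of the 3 dye-swap pairs, 2 of tetYFH1 and 1 of W303, so that the control is assumed to vary as much as tetYFH1. None of the 6174 ORFs reached a Benjamini-Hochberg adjusted p of 0.05 in limma (0%), and the lowest was 0.387. Before adjustment 391 ORFs (6.33%) were under 0.05, of which 234 were higher in tetYFH1 (3.79%) and 157 lower (2.54%). The genes below are therefore described by their values and are not called changed. When each array was entered as a replicate, although the arrays of a pair may share their RNA, 8 ORFs passed in limma, all of them lower: ACS1, ADY2, ALD3, CIT3, GAP1, GIP2, MMS21 and RGI2. The groups are called apart where each tetYFH1 array lay on one side of both W303 arrays. By that count alone 822 ORFs (13.3%) were higher in tetYFH1 and 575 (9.31%) were lower. At least 2-fold and apart were 261 ORFs higher (4.23%) and 147 lower (2.38%), and these shares are the background for the lists of genes below. Without W303 array 1 the lower count was 252. Pair B set against W303 by itself gave 551 higher (8.92%) and 309 lower (5%), and pair A by itself 90 higher (1.46%) and 99 lower (1.6%). The median difference over all ORFs was 0.07 and its SD over ORFs 0.54.

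The arrays differed in quality. Pair B was wider than the others, with an SD over ORFs of 0.74 and 0.65 on its arrays against 0.39 to 0.46 elsewhere. Exact whole numbers, which the labels do not account for, made up 42.2% of the values on B1 and 24.7% on B2. Such values are printed without decimals below. Over all ORFs, r was 0.60 between A1 and A2, 0.40 between B1 and B2, 0.24 between the W303 arrays and 0.20 to 0.32 between the pairs of tetYFH1. The arrays of pair B ran slightly against those of W303 (r from -0.22 to -0.06), and those of pair A did not (r from 0.10 to 0.26). The direction of the W303 ratios rests on the labels alone, since no gene was manipulated there. With those ratios turned, the median difference would read 0.18 in place of 1.14 for cytosolic ribosomal proteins, -0.34 in place of 0.64 for ribosome assembly and -1.02 in place of -1.30 for general stress genes.

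YFH1 had the lowest difference of all. Its log2 ratio was -2.64 and -3.29 on A1 and A2, -5.38 and -5.11 on B1 and B2, and -0.08 and -0.05 on the W303 arrays. All 4 tetYFH1 arrays thus lay far below the control, in which YFH1 stood near 0, and pair B lay below pair A. The RNA came from whole cultures, so fewer cells that express a gene and fewer transcripts per cell cannot be told apart. The difference was -4.04 ± 0.81 (SE; 95% interval -5.92 to -2.17), or 16.5-fold, with an adjusted p of 0.571 in limma. An exact permutation test over the 15 splits of the arrays, 4 against 2, gave a two-sided p of 0.133, the smallest it can give. It takes the arrays of a pair as independent, although they may share their RNA.

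**Figure D1:**
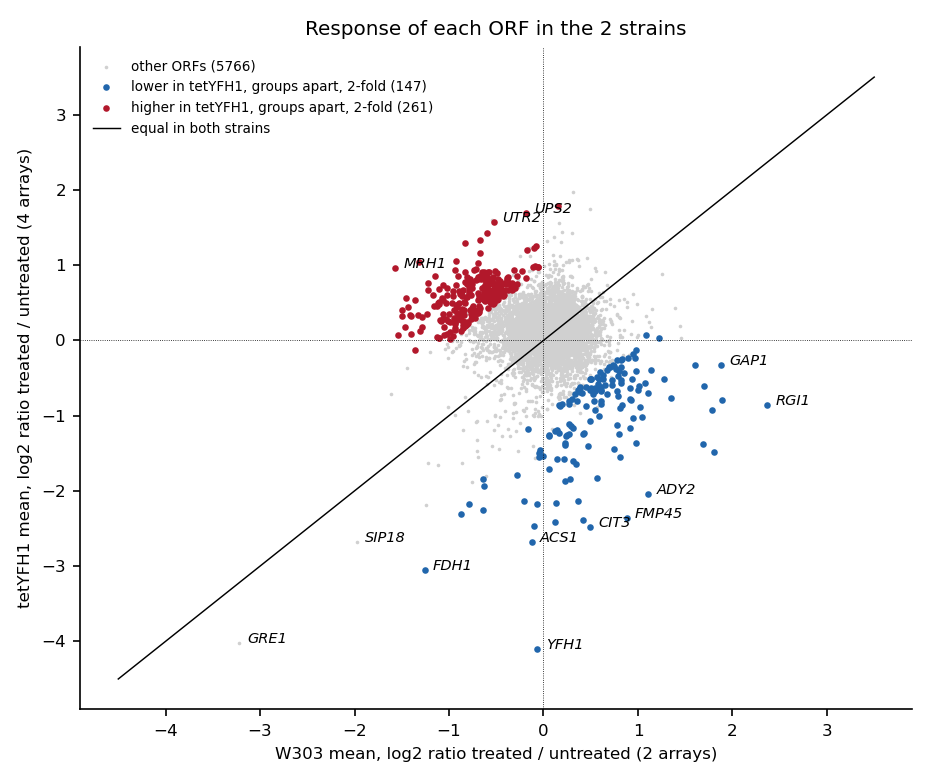
Mean log2 ratio of treated over untreated cells in W303 (horizontal, 2 arrays) and in tetYFH1 (vertical, 4 arrays in 2 pairs), 1 point per ORF. The 147 ORFs at least 2-fold lower in tetYFH1 with groups apart are blue and the 261 higher are red. YFH1 lies at -4.11 in tetYFH1 and -0.06 in W303, while GRE1 and SIP18 lie low in both strains.

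The ORFs were sorted by which strain stood away from 0. Of the 147 ORFs that were lower, 40 (27.2%) had a tetYFH1 mean at least 1 from 0 with a W303 mean under 0.5 from 0, and 5 (3.4%) had a W303 mean at least 1 from 0 with a tetYFH1 mean under 0.5. YFH1 was one of the 40, and ACS1, HBT1, NQM1, POX1, NDE2, HXT5, POT1, ICL2, HSP12, JEN1 and MDH2 were others. In 74 of the 147 (50.3%), some of the 40 among them, the strains lay on opposite sides of 0 on every array, and in 113 (76.9%) both W303 arrays were above 0. Of the 261 ORFs that were higher, 5 (1.92%) had a tetYFH1 mean at least 1 from 0 with W303 under 0.5, namely UPS2, SEC5, CYS3, FET3 and PRP43, and 31 (11.9%) a W303 mean at least 1 from 0 with tetYFH1 under 0.5. In 111 of the 261 (42.5%) the strains lay on opposite sides of 0 on every array. Both W303 arrays were below 0 in 244 of the 261 (93.5%), which rests on the W303 direction that the labels give. The plot of the means of both strains shows these ORFs to the left of 0. All these counts come from ORFs picked for a large difference, which by itself favours strains on opposite sides of 0. No share over all ORFs was taken for them.

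Pair B weighed more than pair A in both directions. It lay farther from W303 in 137 of the 147 lower ORFs (93.2%) and in 255 of the 261 higher ones (97.7%). Both pairs were at least 2-fold from W303 in 73 of the lower ORFs (49.7%) but in 49 of the higher ones (18.8%), and the others were mostly 2-fold in pair B alone (72 and 208). A whole number other than 0 stood on B1 or B2 for 70 of the lower ORFs (47.6%) and 128 of the higher ones (49%).

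**Figure D2:**
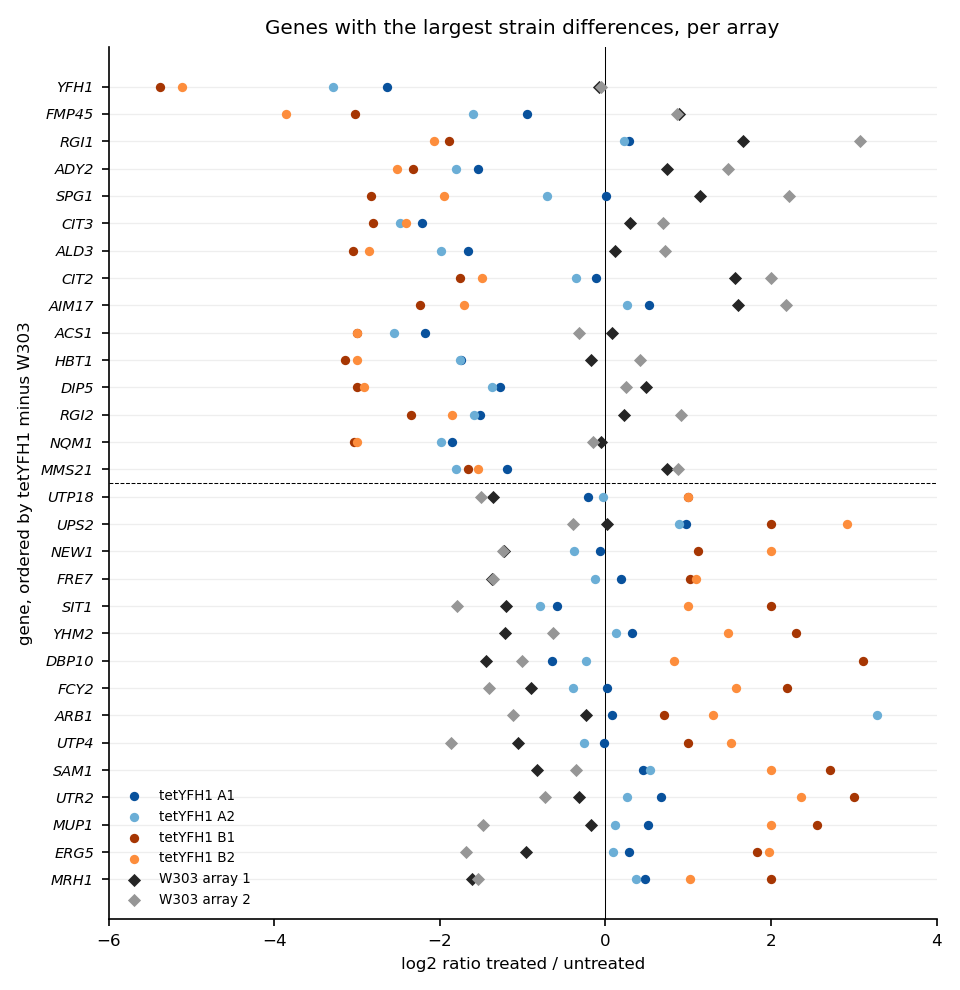
Log2 ratio on each of the 6 arrays for the 15 named genes with the lowest difference (above the dashed line) and the 15 with the highest (below it). Circles are tetYFH1 arrays and diamonds are W303 arrays. In the lower genes the W303 arrays stand between -0.32 and 3.08, and in the higher genes pair B stands to the right of pair A except on A2 of ARB1.

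Genes for the use of acetate were among those lowest in tetYFH1 against W303. ADY2, the acetate transporter of the plasma membrane, read -1.54, -1.81, -2.32 and -2.52 on A1, A2, B1 and B2, and 0.74 and 1.48 on the W303 arrays. All tetYFH1 arrays were low, both W303 arrays were high, and the strains did not overlap. Its difference was -3.16 ± 0.44 (SE; 95% interval -4.19 to -2.13; adjusted p = 0.387 in limma). ACS1, the acetyl-CoA synthetase of cells without glucose, read -2.18, -2.56, -3 and -3 in tetYFH1 and 0.07 and -0.32 in W303. Here the control stayed near 0, and the difference of -2.56 ± 0.42 (SE) arose in tetYFH1. Of the 14 genes for acetate use and the carnitine shuttle, which carries acetyl units into mitochondria, 10 were lower with groups apart and 5 of them at least 2-fold, against 2.38% of all ORFs. The 5 were ADY2, ACS1, YAT2, ATO2 and ATO3. YAT2, a carnitine acetyltransferase, differed by -1.38 with both pairs alike (means of -0.95 and -1.27). ATO3, a putative ammonium exporter of the same family as ADY2, had means of -2.17 in tetYFH1 and -0.79 in W303, so that it was below 0 on all 6 arrays. ALD6, the cytosolic aldehyde dehydrogenase that makes acetate, differed by 1.13 in the other direction. The list's median difference was -0.70 against 0.07 over all ORFs.

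Genes of fatty acid breakdown in peroxisomes lay in the same direction. POX1, the acyl-CoA oxidase of the first step, read -1.79, -1.93, -3 and -2 in tetYFH1 and 0.51 and -0.66 in W303. The strains did not overlap, although the W303 arrays lay on either side of 0, and the difference was -2.11 ± 0.43 (SE). CTA1, the peroxisomal catalase, had the lowest difference of the list, -2.29 ± 0.62 (SE), with 0.08 and 0.18 on the W303 arrays. POT1, the thiolase that ends the cycle, differed by -1.72 ± 0.46 (SE). Of the 15 genes 5 were at least 2-fold lower with groups apart, among them also the half-transporter PXA2 and the dienoyl-CoA reductase SPS19, and 0 were higher. The list stood at a median of -0.86 in pair A, -0.79 in pair B and -0.04 in W303. By these medians both pairs were alike and the control near 0. In the 5 genes themselves pair B lay below pair A, as in CTA1 (means of -2.94 and -1.38). Of the 5, 3 were at least 2-fold from W303 in both pairs.

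The methylcitrate cycle, which handles propionyl-CoA, has 4 genes on the list, and 3 were lower with groups apart. CIT3, the mitochondrial citrate and methylcitrate synthase, read -2.22, -2.49, -2.81 and -2.41 in tetYFH1 and 0.29 and 0.70 in W303. The 4 tetYFH1 arrays lay within a narrow range and far from the control, and the difference was -2.98 ± 0.38 (SE; 95% interval -3.87 to -2.08; adjusted p = 0.387 in limma), which with ADY2 is the smallest adjusted p of all. ICL2, the methylisocitrate lyase, differed by -1.50 ± 0.40 (SE). PDH1, the methylcitrate dehydratase, had means of -1.03 in tetYFH1 and -0.32 in W303, a difference of -0.71 that stayed under 2-fold.

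Of 15 genes of the glyoxylate cycle and gluconeogenesis, 4 were at least 2-fold lower with groups apart. CIT2, the peroxisomal citrate synthase and the usual readout of signalling from mitochondria to the nucleus, read -0.11, -0.35, -1.76 and -1.49 in tetYFH1 and 1.57 and 2.00 in W303. Both W303 arrays were high and only pair B of tetYFH1 lay clearly below 0, so that most of the difference of -2.71 ± 0.58 (SE) stood in the control. The list of 12 genes of that signalling, CIT2 among them, had a median difference of 0.10. Of these genes 2 were higher with groups apart (16.7%, against 13.3% of all ORFs) and 3 lower (25%, against 9.31%). IDH2, on the same list, differed by 1.24 in the other direction, so CIT2 does not stand for the list. ICL1, the isocitrate lyase, differed by -1.44 with W303 at 0.87 and 1.00. MDH2, the cytosolic malate dehydrogenase, differed by -1.32 with W303 at -0.09 and 0.33 and the pairs of tetYFH1 at -1.15 and -1.24. JEN1, the lactate transporter, differed by -1.32 as well. The gluconeogenic enzymes PCK1 and FBP1 differed by -0.54 and -0.41, and their groups were not apart. Together the lists for fatty acids, acetate, glyoxylate and methylcitrate cover 48 genes, 0.777% of the ORFs, and held 16 of the 147 lower ORFs (10.9%) and 1 of the 261 higher ones. With the W303 ratios turned they held 16 of 126 lower ORFs (12.7%) and 0 of 86 higher ones. The lists were written with earlier results of these data known, so this share and the like ones below describe and test nothing. Of the regulators themselves, ADR1 differed by 0.21 (95% interval -0.67 to 1.08) and CAT8 by -0.54 (95% interval -1.50 to 0.42), intervals wide enough to hold a difference of more than 2-fold.

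General stress genes formed the list with the lowest median difference, -1.30. With the W303 ratios turned it would be -1.02, above the -1.67 of the methylcitrate cycle. Of its 37 genes, 24 were lower with groups apart (9.31% of all ORFs), 21 of them at least 2-fold (2.38% of all ORFs), and 0 were higher. The list's median was -0.53 in pair A, -1.59 in pair B and 0.23 in W303, and 17 of the 21 were at least 2-fold from W303 in both pairs. RGI1, a protein of respiratory growth, read 0.29, 0.23, -1.88 and -2.06 in tetYFH1 and 1.66 and 3.08 in W303. Pair A was above 0 and pair B below it, and the control was high on both arrays but unequal, so the difference of -3.23 carried an SE of 0.79. Its paralog RGI2 read -1.52, -1.58, -2.35 and -1.85 in tetYFH1 and 0.22 and 0.92 in W303, a difference of -2.40 ± 0.41 (SE) in which both pairs were low.

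ALD3, a cytosolic aldehyde dehydrogenase that stress induces, read -1.66, -1.99, -3.05 and -2.86 in tetYFH1 and 0.11 and 0.72 in W303. All tetYFH1 arrays lay below the control, by -2.80 ± 0.52 (SE). Its neighbour ALD2 is a near-identical copy and differed by -1.98, and these probes may not tell the copies apart. HSP12, a small membrane-stabilising heat shock protein, differed by -1.33 ± 0.41 (SE), and CTT1, the cytosolic catalase, by -1.21 ± 0.42 (SE), the latter with W303 below 0 as well (-0.26 and -1.01). NQM1, a transaldolase of non-dividing cells, read -1.85, -1.99, -3.04 and -3 in tetYFH1 and -0.06 and -0.15 in W303. The control was flat, and the difference of -2.37 ± 0.51 (SE) came from tetYFH1. HBT1, a protein of mating projections, differed by -2.53 ± 0.56 (SE) with W303 at -0.18 and 0.41.

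Not every stress gene separated the strains. GRE1 and SIP18, which encode hydrophilins that protect dry cells and were picked out after their values had been seen, were among the lowest genes of both strains. GRE1 read -4.72, -4.72, -3.22 and -3.41 in tetYFH1 and -3.02 and -3.42 in W303. Pair A was lower than the control and pair B overlapped it, so that the difference was -0.80 ± 0.58 (SE). SIP18 had means of -2.68 in tetYFH1 and -1.98 in W303. PUT4, the proline permease, was the one ORF that met the criterion of a shared response, means at least 2-fold from 0 in both strains, 1 side of 0 on all 6 arrays and a difference under 0.5. Its means were -1.63 in tetYFH1 and -1.22 in W303. FDH1, the formate dehydrogenase, was low in both strains and lower in tetYFH1, at -2.90, -2.74, -3 and -3.57 against -1.59 and -0.92. Its groups were apart, and the difference was -1.80 ± 0.40 (SE).

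Genes of resting cells and of the plasma membrane domain that holds Sur7 included some of the lowest differences. FMP45, a Sur7-family protein, read -0.94, -1.60, -3.02 and -3.86 in tetYFH1 and 0.89 and 0.87 in W303. The control arrays were alike and above 0, tetYFH1 was below 0 throughout and pair B lay below pair A, for a difference of -3.24 ± 0.78 (SE). Its paralog YNL194C, which has no symbol, differed by -3.29 ± 0.71 (SE). The list holds 11 genes of this family and of eisosomes, the furrows of that domain. FMP45 and YNL194C were its 2 genes lower with groups apart (18.2%, against 9.31% of all ORFs). Higher was 1 (9.09%, against 13.3%). The core eisosome subunit PIL1 differed by 0.04, and EIS1 by 0.99 in the other direction with 1.36 on both arrays of pair A. SPG1, a gene needed in stationary phase at high temperature, read 0.01, -0.71, -2.83 and -1.95 in tetYFH1 and 1.15 and 2.22 in W303. Only pair B was far below 0, and the difference was -3.06 ± 0.74 (SE). IME1, the master regulator of meiosis, differed by -1.33 and GIP2, a phosphatase subunit thought to act on glycogen, by -1.91. Of the 15 genes of quiescence and sporulation 7 were lower with groups apart, 5 of them at least 2-fold, and 0 were higher.

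**Figure D3:**
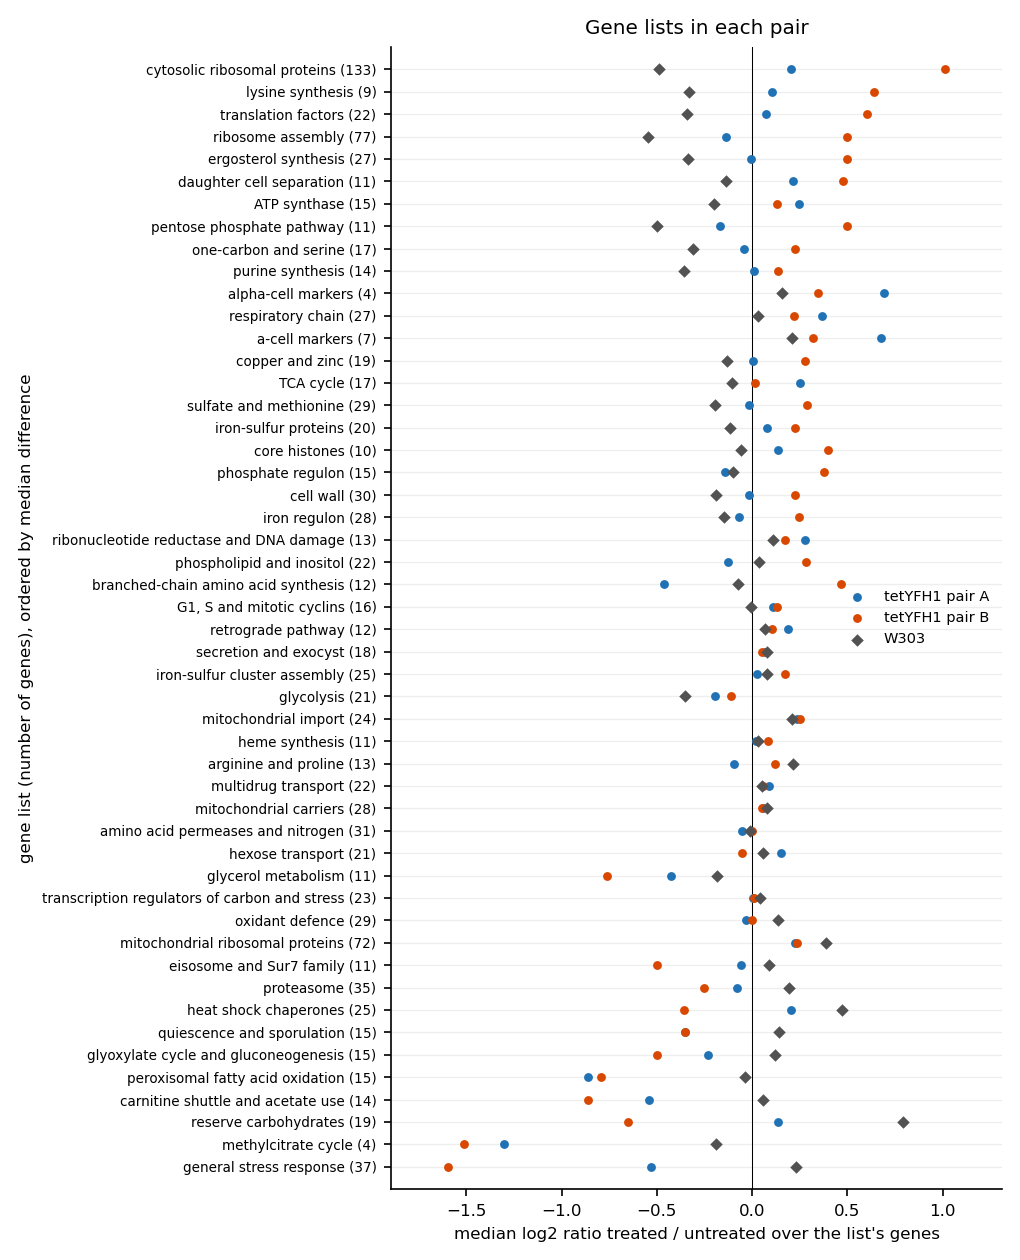
Median log2 ratio over the genes of each of 50 lists in tetYFH1 pair A, tetYFH1 pair B and W303, ordered by median difference, with the number of genes in brackets. Cytosolic ribosomal proteins head the plot with W303 at -0.49 and pair B at 1.01, and general stress genes end it with W303 at 0.23 and pair B at -1.59.

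For reserve carbohydrates the control stood well above 0 and pair A just above it. The 19 genes of trehalose and glycogen metabolism had a median of 0.79 in W303, 0.13 in pair A and -0.65 in pair B. Their median difference was -0.84, and it would be 0.46 with the W303 ratios turned. Lower with groups apart were 10, of which 8 were at least 2-fold, and 3 of those in both pairs. PGM2, the phosphoglucomutase that feeds both stores, read 0.22, 0.15, -1.60 and -1.84 in tetYFH1 and 1.20 and 1.50 in W303. Pair A lay between pair B and the control, and the difference was -2.11 ± 0.71 (SE). TPS2, the trehalose phosphatase, differed by -1.91 ± 0.79 (SE) with whole numbers of -2 on both arrays of pair B. TPS1, the trehalose synthase, differed by -1.69. GPH1, the glycogen phosphorylase, differed by 0.47 in the other direction, and its groups were not apart.

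Heat shock chaperones had the same arrangement, with medians of 0.47 in W303, 0.21 in pair A and -0.36 in pair B. The median difference was -0.38, and it would be 0.29 with the W303 ratios turned. Of 25 genes, 8 were lower with groups apart and 5 at least 2-fold. HSP42, a small heat shock protein that sorts aggregates, read 0.21, 0.00, -1 and -1.63 in tetYFH1 and 1.25 and 2.14 in W303. The control was high on both arrays, pair A stood near 0, and the difference was -2.30 ± 0.58 (SE). HSP104, the disaggregase, differed by -1.71 ± 0.74 (SE). HSP31, a glyoxalase, differed by -1.93, but its W303 value rested on 1 array, with 0.15 on the first and 3.06 on the second. General stress, reserve carbohydrate and heat shock genes together made up 79 genes, 1.28% of the ORFs, and held 33 of the 147 lower ORFs (22.4%) and 0 of the higher ones. With the W303 ratios turned they held 19 of 126 lower ORFs (15.1%) and 5 of 86 higher ones (5.81%).

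Genes for ribosomes were the largest group on the higher side. Of the 133 cytosolic ribosomal protein genes, 104 were higher in tetYFH1 with groups apart (13.3% of all ORFs), 81 of them at least 2-fold (4.23% of all ORFs), and 0 were lower. Their median difference was 1.14. The median was 0.24 and 0.17 on A1 and A2, 1.12 and 0.97 on B1 and B2, and -0.75 and -0.23 on the W303 arrays. The strains thus lay on opposite sides of 0 on every array, and the tetYFH1 side was small in pair A. Of the 81, 7 were at least 2-fold from W303 in both pairs. RPS22A, a protein of the small subunit, read 0.48, 0.40, 2.12 and 1.65 in tetYFH1 and -0.93 and -0.41 in W303. All tetYFH1 arrays were above the control, and its difference of 1.84 ± 0.59 (SE) was the largest of the list. RPL21B, a protein of the large subunit, differed by 1.73 ± 0.47 (SE), and RPL10 by 0.78 ± 0.48 (SE). Most ribosomal protein genes come in pairs of near-identical copies, which these probes may not tell apart, so the 133 genes are not 133 separate observations. A whole number other than 0 stood on B1 or B2 for 66 of the 133.

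**Figure D4:**
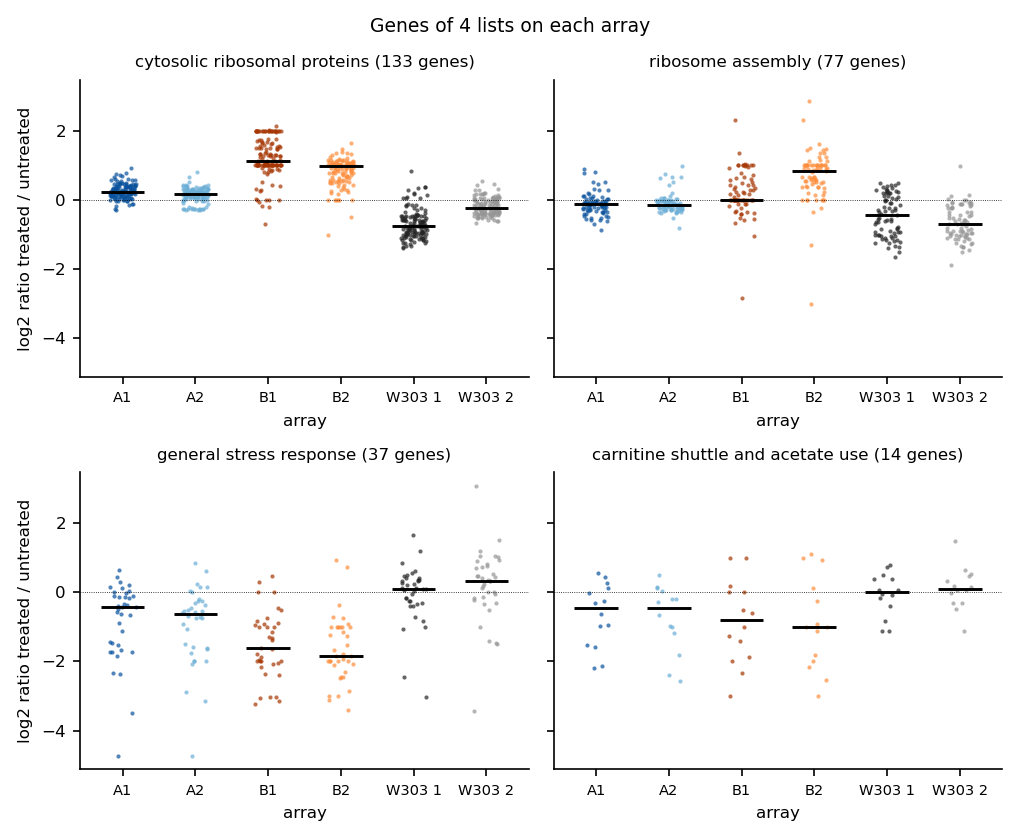
Log2 ratio of each gene of 4 lists on each of the 6 arrays, 1 point per gene, with the list's median on that array as a black bar. By their medians, ribosomal protein genes lie above 0 on the tetYFH1 arrays and below 0 on the W303 arrays. The medians of ribosome assembly genes lie near 0 in pair A. Those of general stress and acetate genes lie below the control on all 4 tetYFH1 arrays.

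Ribosome assembly factors, which build the subunits in the nucleolus, were low in the control. Their 77 genes had a median of -0.55 in W303, -0.14 in pair A and 0.50 in pair B. The median difference was 0.64, and with the W303 ratios turned -0.34. Higher with groups apart were 36, of which 24 were at least 2-fold, and 1 was lower. None of the 24 had the strains on opposite sides of 0 on every array, and in 12 of them the W303 mean was at least 1 from 0 with the tetYFH1 mean under 0.5. UTP4, a subunit of the complex that processes the small subunit's RNA, read -0.02, -0.26, 1 and 1.51 in tetYFH1 and -1.05 and -1.87 in W303. Pair A stood near 0, the control was low on both arrays, and the difference was 2.02 ± 0.58 (SE). UTP18, of the same complex, differed by 1.87 ± 0.51 (SE), TSR1, which acts late on the small subunit, by 1.67 ± 0.47 (SE) and the RNA helicase DBP2 by 1.76 ± 0.67 (SE). DBP10, a helicase of the large subunit, read 3.11 on B1 and 0.82 on B2, and its difference of 1.99 had an SE of 0.84.

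Translation factors followed, with 12 of 22 higher with groups apart, 5 of them at least 2-fold, 0 lower and a median difference of 0.67 (0.02 with the W303 ratios turned). TEF4, a subunit of elongation factor 1B, differed by 1.11 ± 0.43 (SE). NEW1, an ATPase that acts in translation termination, differed by 1.89 ± 0.67 (SE). ARB1, an ATPase of ribosome assembly, read 0.08, 3.28, 0.71 and 1.29 in tetYFH1 and -0.23 and -1.12 in W303. A2 stood alone at the top, so that the difference of 2.01 rested in part on 1 array. Ribosomal protein, assembly and translation genes together made up 232 genes, 3.76% of the ORFs, and held 110 of the 261 higher ORFs (42.1%) and 0 of the lower ones. That share depends on the W303 direction, since with those ratios turned they held 1 of 86 higher ORFs (1.16%) and 8 of 126 lower ones (6.35%).

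The highest difference of all was that of MRH1, a plasma membrane protein. It read 0.48, 0.37, 2 and 1.03 in tetYFH1 and -1.61 and -1.54 in W303. The control arrays were alike and low, tetYFH1 was above 0 throughout, and the difference was 2.54 ± 0.51 (SE; 95% interval 1.36 to 3.72; adjusted p = 0.571 in limma). UPS2, which acts in the transport of phospholipids inside mitochondria, had a flat control (0.02 and -0.39) and read 0.97, 0.89, 2 and 2.91 in tetYFH1. It is one of the 5 higher genes with W303 under 0.5 from 0, and its difference was 1.88 ± 0.61 (SE). SEC5, an exocyst subunit, was another, but its values ran from 0.49 on B2 to 4.33 on B1. Cell wall genes included UTR2, a chitin transglycosidase, with 0.67, 0.26, 3 and 2.36 in tetYFH1 and -0.32 and -0.73 in W303. Pair B was far higher than pair A, and the SE of its difference of 2.10 was 0.79. EXG1, a glucanase, differed by 1.49 and GAS1, a glucan-modifying enzyme, by 1.56. In the list of 30 cell wall genes 6 were higher with groups apart (20%, against 13.3% of all ORFs), 4 of them at least 2-fold. Lower were 2 (6.67%, against 9.31% of all ORFs).

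Ergosterol synthesis was higher in 13 of 27 genes with groups apart, 5 of them at least 2-fold, and lower in 0. The list's median difference was 0.52 (-0.28 with the W303 ratios turned), with -0.34 in W303, -0.01 in pair A and 0.50 in pair B. ERG5, the sterol desaturase of a late step, read 0.28, 0.09, 1.83 and 1.97 in tetYFH1 and -0.96 and -1.68 in W303. Both W303 arrays were low, pair A stood near 0, and the difference was 2.37 ± 0.66 (SE). ERG3 differed by 1.62, ERG11, the lanosterol demethylase, by 1.46 ± 0.52 (SE) and ERG1, the squalene epoxidase, by 1.46 ± 0.48 (SE). ERG1 was one of those that differed through W303, where it read -0.98 and -1.59.

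Of 29 sulfate and methionine genes, 10 were higher with groups apart (34.5%, against 13.3% of all ORFs), 7 of them at least 2-fold (4.23% of all ORFs). Lower with groups apart was 1 (3.45%, against 9.31% of all ORFs). The list's median difference was 0.30 (-0.17 with the W303 ratios turned). MUP1, the high-affinity methionine permease, read 0.51, 0.11, 2.55 and 2 in tetYFH1 and -0.18 and -1.48 in W303. Pair B was high, pair A was slightly above 0, and the W303 arrays were unequal, so that the difference of 2.12 had an SE of 0.72. SAM1 and SAM2, near-identical synthases of S-adenosylmethionine, differed by 2.02 and 1.24. MET17, the sulfhydrylase that fixes sulfide, differed by 1.62 ± 0.50 (SE), and CYS3, the cystathionine lyase, by 1.32 ± 0.61 (SE). Lysine synthesis was higher with groups apart in 5 of 9 genes (55.6%, against 13.3% of all ORFs) and lower in 0. Its median difference was 0.72 (0.09 with the W303 ratios turned). LYS20, the homocitrate synthase, differed by 1.28, and LYS4, the homoaconitase, an iron-sulfur enzyme, by 1.20 ± 0.41 (SE).

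The pentose phosphate pathway divided by isoenzyme, given the W303 direction of the labels. Its median difference was 0.42 (-0.37 with the W303 ratios turned). With those ratios turned, the higher genes TKL1, GND1 and RKI1 would read -0.19, -0.32 and -0.42. TKL1, the main transketolase, read 0.62, 0.33, 1 and 1 in tetYFH1 and -0.77 and -1.08 in W303. The strains lay on opposite sides of 0, by 1.66 ± 0.41 (SE). Its minor copy TKL2 read -2.37, -2.87, -2 and -2 in tetYFH1 and -0.26 and -1.47 in W303, lower by -1.44 ± 0.42 (SE) and below 0 on all 6 arrays. GND1, the main 6-phosphogluconate dehydrogenase, differed by 1.80 ± 0.68 (SE), and its minor copy GND2 by -1.30. NQM1, the minor transaldolase, and SOL4, a minor lactonase that differed by -1.46, were lower too, and RKI1, the ribose-5-phosphate isomerase, differed by 1.79. Of the 11 genes, 5 were higher with groups apart, 3 of them at least 2-fold, and 4 were lower, all at least 2-fold. The 4 lower genes, GND2, NQM1, SOL4 and TKL2, are also on the list of general stress genes and were counted there.

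Genes of the iron regulon were mixed. Of its 28 genes, 5 were higher with groups apart (17.9%, against 13.3% of all ORFs), and 2 were lower (7.14%, against 9.31%). Of the 5, 4 were at least 2-fold higher (4.23% of all ORFs), and 0 of these were 2-fold in both pairs. The list's median difference was 0.19 (-0.04 with the W303 ratios turned). FET3, the multicopper oxidase of iron uptake, read 0.56, 0.46, 2 and 1.78 in tetYFH1 and -0.08 and -0.27 in W303. The control stood just below 0 and both pairs above it, pair B more so, and the difference was 1.37 ± 0.57 (SE). FTR1, the permease that works with FET3, read 0.15, -0.10, 1.44 and 1.80 in tetYFH1 and -0.50 and -1.05 in W303, a difference of 1.60 ± 0.63 (SE) with pair A near 0. SIT1, a siderophore transporter, and FRE1, a ferric reductase, were below 0 on both arrays of pair A. SIT1 read -0.58, -0.79, 2 and 1 in tetYFH1 and -1.20 and -1.79 in W303, and FRE1 -0.59, -0.67, 0.96 and 1.60 against -1.33 and -1.47. For both genes the control was lower still, with differences of 1.90 ± 0.78 (SE) and 1.73 ± 0.71 (SE). FIT3, a cell wall mannoprotein that holds siderophore iron, differed by -0.92 in the other direction. FET4, a low-affinity iron transporter that is not on this list, differed by 1.82 ± 0.52 (SE) with W303 at -1.25 and -1.75. FRE7, a reductase that copper controls and also not on the list, differed by 1.90 ± 0.50 (SE) with W303 at -1.36 on both arrays.

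Genes of iron-sulfur cluster assembly other than YFH1 stood close to the control. Of 25 genes 1 was higher with groups apart (4%, against 13.3% of all ORFs) and 1, YFH1, lower (4%, against 9.31%). The median difference was 0.06. NFS1, the cysteine desulfurase, differed by 0.04 ± 0.40 (SE; 95% interval -0.89 to 0.97), and ISU1, the scaffold on which clusters are made, by 0.06 ± 0.38 (SE; 95% interval -0.81 to 0.94). These intervals are wide enough to hold changes near 2-fold either way. Among 20 iron-sulfur proteins 5 were higher with groups apart (25%, against 13.3% of all ORFs), among them LYS4 and RLI1, and 0 were lower. ACO1, aconitase, differed by 0.28 ± 0.38 (SE). LEU1, the isopropylmalate isomerase, read -1.71 and -1.41 in pair A but -0.08 and 0.51 in pair B, against 0.41 and -0.34 in W303, so that the pairs disagreed and only pair A lay below the control. Of 11 heme synthesis genes 1 was higher with groups apart, HEM1, the enzyme of the first step, by 0.83, and 1 was lower, HEM15, the ferrochelatase, by -0.73. Each is 9.09% of that list, against 13.3% of all ORFs higher and 9.31% lower.

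Energy genes of the mitochondria were slightly higher as lists, with single genes against the trend. The median difference was 0.31 for 17 genes of the TCA cycle, 0.33 for 27 of the respiratory chain and 0.46 for 15 of ATP synthase. With the W303 ratios turned it would be -0.09, 0.22 and 0.12. On B1 the median ratio of each of these lists was 0. Higher with groups apart were 7, 6 and 6 of them (41.2%, 22.2% and 40%, against 13.3% of all ORFs). In each list 1 was lower (5.88%, 3.7% and 6.67%, against 9.31% of all ORFs). IDH2, a subunit of isocitrate dehydrogenase, read 0.58, 0.63, 0.98 and 0.95 in tetYFH1 and -0.70 and -0.21 in W303, a difference of 1.24 ± 0.39 (SE) in which both pairs took part. CYC1, cytochrome c, differed by 0.74 ± 0.38 (SE). The external NADH dehydrogenases parted from each other, with NDE1 higher by 1.16 ± 0.45 (SE) and NDE2 lower. NDE2, picked out after its values had been seen, read -1.20, -1.33, -2.22 and -2.73 in tetYFH1 and -0.14 and 0.59 in W303, so that all tetYFH1 arrays lay below the control, by -2.09 ± 0.53 (SE). STF2, also picked out afterwards, is counted with ATP synthase and is known as a protein of drying tolerance, and it differed by -1.55 ± 0.41 (SE). YHM2, the citrate and oxoglutarate carrier of mitochondria, differed by 1.98 ± 0.64 (SE). The 72 mitochondrial ribosomal protein genes had a median of 0.39 in W303 and 0.22 and 0.23 in the pairs of tetYFH1, above 0 in both strains. Of them 9 were lower with groups apart (12.5%, against 9.31% of all ORFs), 0 higher and 0 at 2-fold.

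Nitrogen transport genes gave single large differences without a trend in their list, whose median over 31 genes was 0.00. GAP1, the general amino acid permease, read -0.45, -0.64, 0 and -0.20 in tetYFH1 and 1.72 and 2.03 in W303. Both control arrays were high and tetYFH1 stood near 0, so that the difference of -2.20 ± 0.40 (SE) was of the kind in which W303 alone lay far from 0. DIP5, the permease of acidic amino acids, was the reverse, with -1.27, -1.37, -3 and -2.92 in tetYFH1 and 0.49 and 0.24 in W303. Its difference was -2.51 ± 0.64 (SE), and most of it stood in tetYFH1. PUT1, the proline oxidase, differed by -1.80 ± 0.49 (SE), unlike the permease PUT4, which was low in both strains. FCY2, the permease of purines and cytosine, differed by 2.00 ± 0.75 (SE) with pair A at 0.02 and -0.39.

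Other single genes fell outside the groups above. MMS21, a SUMO ligase that acts in DNA repair, read -1.18, -1.80, -1.66 and -1.54 in tetYFH1 and 0.74 and 0.88 in W303. Both pairs were alike and far from the control, by -2.36 ± 0.38 (SE; adjusted p = 0.526 in limma). AIM17, a mitochondrial protein of unknown function, read 0.53, 0.26, -2.24 and -1.71 in tetYFH1 and 1.60 and 2.18 in W303, and its pairs lay on opposite sides of 0. HXT5, a hexose transporter of slow growth, differed by -1.77 ± 0.51 (SE) with W303 at 0.16 and -0.05. CLN2, a G1 cyclin, differed by 1.07 ± 0.52 (SE) and was the one gene of 16 cyclin genes at least 2-fold apart. That is 6.25% of the list, against 4.23% of all ORFs.

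Some lists had 0 or 1 member at least 2-fold with groups apart. The 13 genes of ribonucleotide reductase and DNA damage had 0 apart in either direction. The 22 of multidrug transport had 4 higher (18.2%, against 13.3% of all ORFs) and 3 lower (13.6%, against 9.31%), with 0 at 2-fold. The 35 of the proteasome had 11 lower (31.4%, against 9.31%) and 0 higher, with 0 at 2-fold and a median difference of -0.35. The 29 genes of oxidant defence had 7 lower (24.1%) and 0 higher, with CTA1 alone at 2-fold. The strains are of mating type a by their parent. Of 7 a-cell markers 1 was higher with groups apart (14.3%, against 13.3% of all ORFs), and of 4 alpha-cell markers 0. The median differences of these marker lists were 0.33 and 0.35. STE2, the receptor of a cells, had means of 0.86 in tetYFH1 and 0.28 in W303. A ratio shows a change between treated and untreated cells and not a level, so these markers bear on no cell type directly.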

How the data were processed

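The authors deposited 1 log2 ratio of treated over untreated RNA for each of 6174 ORFs on each array, and no value was missing. Per the labels' protocols, cells were taken at an A600 of 0.5 from 30 ml of culture, 8 µg of total RNA was labelled indirectly, and the treated RNA carried Cy5 in Exp 1 and Cy3 in Exp 2 of each pair. How the arrays were scanned and normalized is not given in the sources used here. No intensities were analysed, so signal over background is unknown.

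The deposited values were used as they stand. Gene symbols came from the R64 gene table, through its locus tags (5675 ORFs found, 499 not, 5158 with a symbol), and no coordinates were used. Each dye-swap pair was averaged, which cancels a dye effect, and entered as 1 replicate. limma 3.58.1 in R 4.3.3 fitted 1 coefficient per strain to the 3 pair means, with moderated variances (residual degrees of freedom 1, prior 6.64) and Benjamini-Hochberg adjustment over the 6174 ORFs, two-sided, threshold 0.05. The fit was tested on simulated data. Counts of groups apart and at least 2-fold, and the counts and medians of 50 lists (1106 genes), carry no test. The comparison, the lists and the members were chosen with earlier results of these data known.

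The naming rule took YFH1, then the 15 with a symbol and the largest difference in each direction among those at least 2-fold with groups apart, then up to 5 in each direction among those with strains on opposite sides of 0, with W303 alone far from 0 or with a shared response. Of each list up to 5 genes with groups apart in the list's direction, the first 3 of the list and any of a list of 12 or fewer were eligible. ALD2, ALD6, SAM2, GRE1, SIP18, NDE2 and STF2 were added to the text once their values were known. Alternatives comprised single arrays as replicates (alone, with the Exp number as a block, or with the pair as a random block), centring and scaling of arrays, robust moderation, omission of ORFs with whole numbers, turned W303 ratios, a threshold of 0.1, and omission of each array and each tetYFH1 pair. Promoter motifs were not analysed here.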

Additional observations from a re-analysis of the deposited data

Results flagged for a closer look

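In 7 lists the median lay on one side of 0 on all 4 tetYFH1 arrays and on the other side on both W303 arrays. The median difference was 1.14 for cytosolic ribosomal proteins, 0.72 for lysine synthesis and 0.67 for translation factors, and with the W303 ratios turned 0.18, 0.09 and 0.02. It was -1.30 for general stress genes, -0.70 for the carnitine shuttle and acetate use, -0.66 for fatty acid oxidation in peroxisomes and -0.39 for quiescence and sporulation. For fatty acid oxidation the W303 medians were 0.03 and 0.04, and for the carnitine shuttle and acetate use 0.0012 and 0.10. The opposite sign in both lists thus means only that the control stood near 0. These differences between strains were not tested as lists.

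Single arrays stood far from the other 3 of tetYFH1 in 2 of the 112 named genes. GND2 read -1.73 on A1 and -2 on the other 3, so the gap there measures how alike those 3 are. HEM1 read 0.77 on B1 against -0.04 to 0.00 on the others. Chance marks about 1 group in 20 by this criterion, more than were seen here.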

How the results depend on the processing

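The count of genes past the threshold was 0 with centred arrays, scaled arrays, robust moderation, omission of ORFs with whole numbers and omission of any single array. It was 8 with each array as a replicate, 10 with the pair as a random block and 4 with the Exp number as a replicate block (ACS1, ADY2, CIT3 and MMS21). With each letter's arrays entered singly it was 100 without pair A and 140 without pair B, where YFH1 differed by -5.18 (adjusted p = 0.00784 in limma) and -2.90 (adjusted p = 1.66e-07). These fits take the arrays of a pair as independent. The Exp number stands for the dye orientation and pairs no samples. ORFs at least 2-fold and apart were 142 to 252 (lower) and 257 to 340 (higher) when 1 array was left out, except 127 lower without W303 array 2. Without a pair they were 309 and 551 (no pair A) and 99 and 90 (no pair B). With the ORFs that held a whole number other than 0 on B1 or B2 left out, 77 and 133 remained of 4803, and with all whole numbers left out 73 and 120 of 2951.

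Turning the W303 ratios gave 3 genes past the threshold (CHA1, FDH1 and GRE1, all lower), 126 ORFs lower and 86 higher, and changed the sign of 19 of 50 list medians. Of the 10 lists with a median difference of at least 0.5 from 0, 3 changed sign then, and under the other alternatives 0 of those with a value did (9 and 8 of the 10 where ORFs with whole numbers were left out). The genes that turned upwards were RGI1 to 1.51, GAP1 to 1.55, HSP31 to 1.28, AIM17 to 1.10, HSP42 to 1.09, CIT2 to 0.86, PGM2 to 0.58, ICL1 to 0.43, PUT1 to 0.40, YNL194C to 0.32, SPG1 to 0.31, PCK1 to 0.31, STF2 to 0.28, TPS1 to 0.14, TPS2 to 0.13, HSP104 to 0.13 and HEM15 to 0.0153. Downwards turned EXG1 to -1.32, FET4 to -1.18, ERG1 to -1.11, SIT1 to -1.09, DBP2 to -1.07, FRE1 to -1.07, TSR1 to -0.99, UTP18 to -0.99, UTP4 to -0.90, FRE7 to -0.82, PIL1 to -0.63, MET17 to -0.61, MRH1 to -0.60, NEW1 to -0.56, LYS20 to -0.54, ERG11 to -0.48, HEM1 to -0.47, DBP10 to -0.46, ERG3 to -0.42, RKI1 to -0.42, ISU1 to -0.34, GND1 to -0.32, FCY2 to -0.30, ERG5 to -0.28, TKL1 to -0.19, NDE1 to -0.0843, SAM2 to -0.0827, GAS1 to -0.0593 and ALD6 to -0.0001. Genes near 0 changed sign elsewhere. With 1 array left out NFS1 ran from -0.26 to 0.34, ISU1 from -0.15 to 0.27 and PIL1 from -0.15 to 0.24. With scaled arrays NFS1 was -0.0046 and PIL1 -0.0055, without pair A LEU1 was 0.18, and without pair B NFS1 was -0.17 and PUT4 0.23. The causes were not tested. The number of arrays limits the precision, and W303 had 1 pair, so its own spread is unknown.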
